A study of Mus musculus with 6 samples.

Results

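Interferon-stimulated genes are transcribed when interferon is sensed, and 9 of them were followed in the hippocampus of miR-17-92 knockout and wildtype mice: Stat2, Irf9, Irf7, Ifit1, Ifit2, Ifit3, Isg15, Usp18 and Bst2. They were chosen by name, and each symbol matched 1 of the 37620 Ensembl identifiers counted in every library. RNA was sequenced from 3 mice labelled as miR-17-92 knockouts and from 3 labelled wildtype. All 6 were C57BL/6 mice of 13 weeks, no pair of them shared a litter, and no treatment is named. The labels do not say which bases were removed, in which cells, or whether a driver of Cre was used, so the extent of the deletion within the hippocampus is not known here. Gene counts ran from 26439693 to 57246827 per knockout library and from 31731263 to 43588323 per wildtype library.

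Type I interferons bind the receptor pair of Ifnar1 and Ifnar2, whose kinases Tyk2 and Jak1 phosphorylate STAT2. This joins IRF9 in the factor ISGF3, which binds the interferon-stimulated response element (ISRE) in the promoters of its target genes. In brain, resting levels of these targets are low and follow a weak basal interferon signal, microglia being among the cells best known to respond. The miR-17-92 cluster encodes microRNAs that lower target messages through short seed matches in 3' UTRs. The 9 genes were set against both, as ISRE-bearing genes and as possible carriers of such seed matches.

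The promoter stretches that hold an ISRE are shown because they are the sequence feature the 9 genes are best known for. The letters searched were GAAANNGAAA, on both strands, in windows from 250 bases before to 50 bases after each start site, taken from RefSeq on GRCm38.p6. A window was present for 8 of the 9 genes, all but Usp18. The letters occurred in 5 of these 8 (62.5%), against 3.99% of all 27025 genes with a window and 47.6% of the 42 other interferon-stimulated genes with one. Each stretch below reads 5' to 3' along the gene's own strand with 20 bases on either side, and capitals mark the matches, which read TTTCNNTTTC where they lie on the opposite strand.
Ifit1: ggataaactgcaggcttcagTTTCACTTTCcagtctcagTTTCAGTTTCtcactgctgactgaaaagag
Ifit3: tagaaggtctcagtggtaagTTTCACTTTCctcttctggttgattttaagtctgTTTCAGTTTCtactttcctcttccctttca
Stat2: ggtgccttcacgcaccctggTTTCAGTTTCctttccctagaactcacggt
Isg15: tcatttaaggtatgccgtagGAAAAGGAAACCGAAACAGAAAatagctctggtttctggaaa
Bst2: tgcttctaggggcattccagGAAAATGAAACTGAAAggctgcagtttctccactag

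These stretches lie at chr19:34640765-34640833 on the plus strand for Ifit1, at chr19:34583353-34583436 on the plus strand for Ifit3, and at chr10:128270256-128270305 on the plus strand for Stat2. That of Isg15 lies at chr4:156200855-156200916 on the minus strand and that of Bst2 at chr8:71537567-71537622 on the minus strand. The first capital of Isg15 is 78 bases before the start site, where 3 overlapping matches run on, and the first of Bst2 is 130 bases before it, where 2 overlap. The matches of Ifit1 begin 104 and 85 bases before the start, those of Ifit3 156 and 122 bases, and that of Stat2 222 bases. The windows of Ifit2, Irf7 and Irf9 did not hold these letters. The shorter letters of the gamma-activated site, TTCNNNGAA, which bind STAT dimers, occurred in the windows of Ifit2 and Bst2 and in 9.55% of all genes with a window. In Bst2 they overlap an ISRE match. A match is a run of letters and says nothing of binding in these mice.

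The microRNAs of the cluster fall into 4 families by seed, bases 2 to 8, shown in capitals. They are printed because the seed decides which letters in a 3' UTR can pair. All lie on the plus strand of chromosome 14 in RefSeq on GRCm38.p6, from 115043684 for the first base of mmu-miR-17-5p to 115044496 for the last base of mmu-miR-92a-3p.
mmu-miR-17-5p: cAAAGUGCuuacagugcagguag
mmu-miR-20a-5p: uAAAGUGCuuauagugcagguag
mmu-miR-18a-5p: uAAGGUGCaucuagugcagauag
mmu-miR-19a-3p: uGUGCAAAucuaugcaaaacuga
mmu-miR-19b-3p: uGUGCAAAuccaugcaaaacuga
mmu-miR-92a-3p: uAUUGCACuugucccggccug

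In the longest annotated 3' UTR of each gene (GENCODE M21), 7-base matches to these seeds occurred in 5 of the 9 genes. They are shown with 10 bases on either side and the seed match in capitals.
Ifit1, miR-17 and miR-20a: gcatattgtgGCACTTTtatcctggat
Ifit3, miR-17 and miR-20a: gggaggcaacGCACTTTggggcacagg
Ifit3, miR-18a: agcagacagaGCACCTTttgatcacat
Irf7, miR-17 and miR-20a: ttcgacttcaGCACTTTcttccgagaa
Irf9, miR-17 and miR-20a: ctaaatctaaGCACTTTatatatttta
Stat2, miR-19a and miR-19b: catcatttctTTTGCACagtgttttgt

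The match to miR-17 and miR-20a was thus held by Ifit1, Ifit3, Irf7 and Irf9, and by 12.2% of the 21173 genes with an annotated 3' UTR. The match to miR-18a was held by 8.56% of those genes and the match to miR-19 by 11.95%. No match to the miR-92a seed was found in the 9 genes, against 6.89% of all genes with a 3' UTR. The 3' UTRs of Ifit2, Isg15, Usp18 and Bst2 held none of the 4. These genes differ in UTR length, from 160 bases in Isg15 to 1945 bases in Ifit2, and no test was made on so few genes.

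The host transcript of the cluster, Mir17hg, had 30, 35 and 37 reads in the knockout libraries, against 43, 47 and 36 reads in the wildtype libraries. That is 0.933, 1.33 and 0.648 CPM (counts per 1e+06 gene reads, with TMM scaling of library sizes) in knockout and 1.07, 1.07 and 1.13 CPM in wildtype. The groups overlapped, and the log2 fold change of knockout over wildtype was -0.22, with an adjusted p of 0.813 by the quasi-likelihood test of edgeR. Since the deleted part of the host gene is not stated, reads from its other parts check nothing about the genotype.

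None of the 9 genes differed between the genotypes at an adjusted p under 0.05. All 9 passed the filter on low counts and were tested with edgeR's quasi-likelihood test among 16432 genes, with Benjamini-Hochberg adjustment over all of them. The adjusted p ran from 0.471 for Bst2 to 0.897 for Irf9. Of all genes tested 0.00% passed as well, the smallest adjusted p being 0.0624. At an unadjusted p under 0.05 there were 0 of the 9 genes, against 1746 of all genes (10.6%), or 5.05% higher and 5.58% lower in knockout. DESeq2 called 0 of the 3 genes to which it gave an adjusted p (Ifit2, Irf9 and Stat2), and limma-voom and edgeR's robust fit called 0 of 9. Over all genes DESeq2 called 164, limma-voom 0 and the robust fit 15. The fold changes were positive for 3 genes and negative for 6, with a median log2 fold change of -0.13, beside 0.00 over all genes tested, of which 50.01% were positive. In whole hippocampus, fewer cells of a type and less RNA per cell cannot be told apart.

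**Figure D1:**
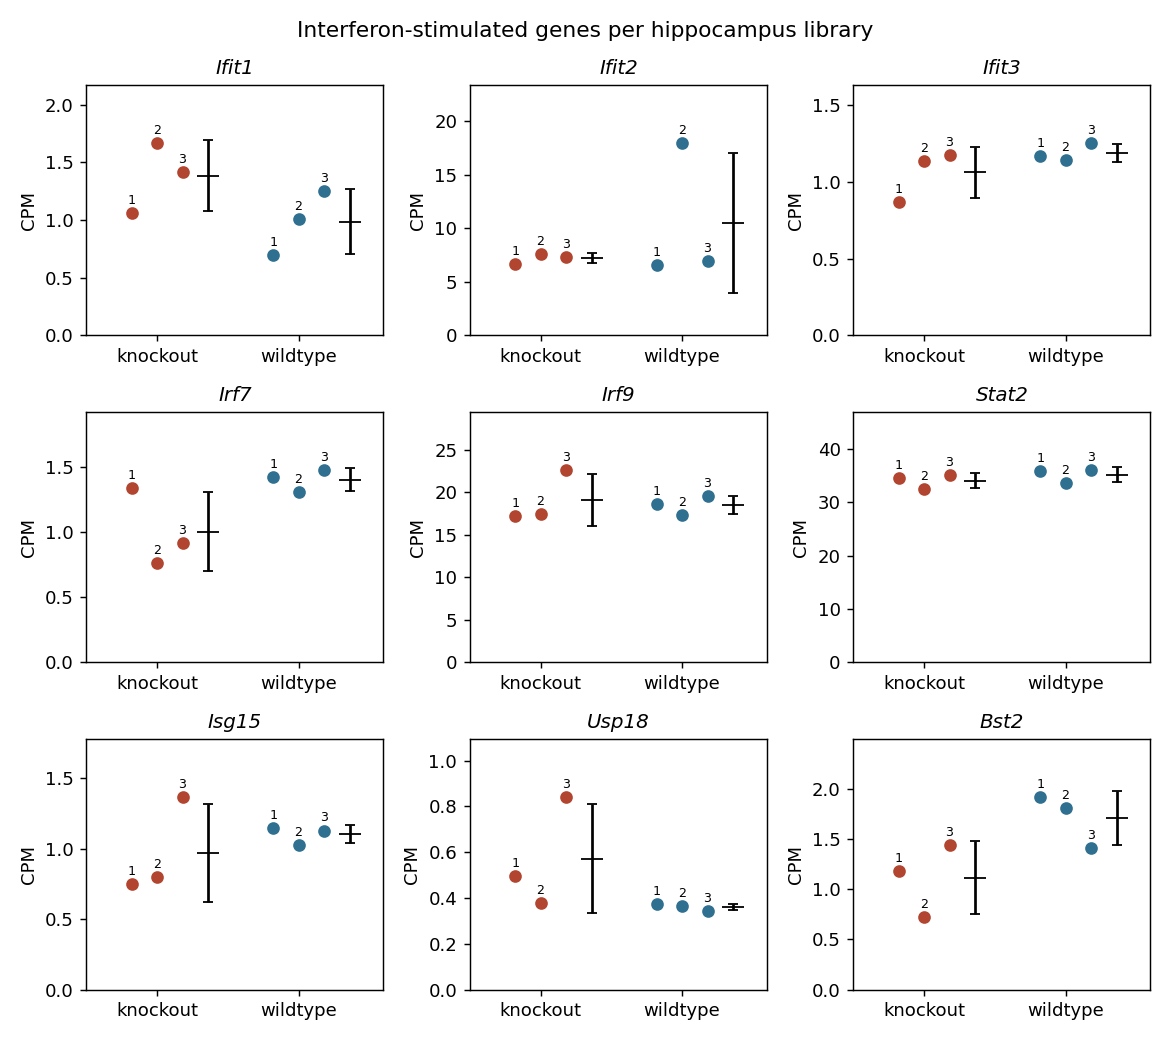
Level of each of the 9 genes in CPM with TMM scaling (vertical axis, from 0) in the 3 knockout libraries (red) and 3 wildtype libraries (blue), numbered by replicate, with the mean and SD of each genotype in black. The genotypes overlap in 8 of the 9 genes, and the 17.98 CPM of Ifit2 in wildtype replicate 2 stands alone.

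The ISGF3 subunits Stat2 and Irf9 were the most abundant of the 9 and the most even across libraries. Stat2, the STAT that serves mainly type I and type III interferon signalling, had 34.6, 32.4 and 35.1 CPM in knockout libraries, against 35.8, 33.5 and 36.1 CPM in wildtype libraries. The genotypes overlapped, and replicate 2 was the lowest of its genotype in both. The log2 fold change was -0.04 with a standard error (SE) of 0.06. The fold was 0.970, with a 95% interval from 0.888 to 1.06, and the adjusted p was 0.813 (edgeR's quasi-likelihood test, Benjamini-Hochberg). With 854 reads or more in every library, this was the most narrowly bounded comparison of the 9.

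Irf9, the subunit that gives ISGF3 its main contact with the ISRE, had 17.2, 17.5 and 22.6 CPM in knockout libraries, against 18.6, 17.4 and 19.6 CPM in wildtype libraries. The value of knockout replicate 3 was the highest of all, and the other 5 libraries lay between 17.2 and 19.6 CPM. The means were 19.1 ± 3.07 CPM in knockout and 18.5 ± 1.10 CPM in wildtype (SD, n = 3 each), a log2 fold change of 0.05 (SE 0.11). Without knockout replicate 3 the log2 fold change was -0.10. Exons of Irf9 overlap those of Rnf31 on the same strand over 123 bases (2.28% of its exon length), where reads of the pair cannot be told apart.

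Irf7, which drives transcription of interferon alpha genes and is itself induced by interferon, had 43, 20 and 52 reads in knockout libraries, against 57, 57 and 47 in wildtype libraries. Scaled for depth these were 1.34, 0.759 and 0.911 CPM in knockout and 1.42, 1.302 and 1.47 CPM in wildtype. Knockout replicates 2 and 3 were below every wildtype library, and knockout replicate 1 lay inside the wildtype range. The log2 fold change was -0.48 (SE 0.24), a fold of 0.719 with a 95% interval from 0.495 to 1.04, and the adjusted p was 0.526 by edgeR's quasi-likelihood test. Leaving out 1 library at a time gave log2 fold changes from -0.72, without knockout replicate 1, to -0.33. Of its exon bases 45 overlap Phrf1 on the opposite strand, and the strand setting of the counts is not given.

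The IFIT genes encode tetratricopeptide repeat proteins, some of which bind viral RNA, and they lie together on chromosome 19. Their 3 values did not move together. Ifit1 was above wildtype on average, Ifit2 was set apart by 1 wildtype library, and Ifit3 was close to even. None passed the test.

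Ifit1 had 34, 44 and 81 reads in knockout libraries, against 28, 44 and 40 in wildtype libraries. In CPM this was 1.06, 1.67 and 1.42 in knockout and 0.697, 1.01 and 1.25 in wildtype. Knockout replicates 2 and 3 were above every wildtype library, and knockout replicate 1 lay between wildtype replicates 2 and 3. The log2 fold change was 0.49 (SE 0.27), a fold of 1.41 with a 95% interval from 0.921 to 2.15 and an adjusted p of 0.565 by edgeR's quasi-likelihood test. Leaving out 1 library at a time gave log2 fold changes from 0.29, without wildtype replicate 1, to 0.69. Of the 50-base stretches of its transcript, 7.13% also occur in transcripts of other genes, nearly all of them in its neighbour Ifit1bl2.

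Ifit2, which is tied to antiviral defence in neurons in mouse studies, had 6.65, 7.55 and 7.34 CPM in knockout libraries, against 6.55, 17.98 and 6.93 CPM in wildtype libraries. Wildtype replicate 2, with 787 reads, was 2.38 times the next library, while the other 5 lay between 6.55 and 7.55 CPM with a mean of 7.01 ± 0.432 (SD, n = 5). The log2 fold change was -0.56 (SE 0.35, adjusted p 0.610 by edgeR's quasi-likelihood test) with all libraries. It was 0.09 without wildtype replicate 2, and -0.81 and -0.78 without wildtype replicates 1 and 3. The sign of the Ifit2 difference thus rested on that 1 mouse. No 50-base stretch of Ifit2 occurs in another gene's transcript.

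Being at least 2 times every other library was uncommon: it held for 37 of the 16432 genes tested (0.225%), in any of the 6 libraries. Of these, 16 had wildtype replicate 2 on top, Ifit2 among them. Another was C4b, a complement component, with 14.6, 16.5 and 17.9 CPM in knockout libraries, against 19.3, 38.9 and 17.5 CPM in wildtype libraries. At 2.02 times its next library C4b was near the low end of the 16, and Tpm3-rs7 was the highest at 25.3 times. Myo7a, an unconventional myosin, had 3.45, 4.06 and 3.94 CPM in knockout libraries, against 3.84, 15.5 and 3.61 CPM in wildtype libraries. The other 8 interferon-stimulated genes did not share this: wildtype replicate 2 was their highest library in 0 of 8. Both this count and the examples beside Ifit2 were picked with the values in view, and what sets that mouse apart was not tested.

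Ifit3 had 28, 30 and 67 reads in knockout libraries, against 47, 50 and 40 in wildtype libraries. The CPM were 0.871, 1.14 and 1.17 in knockout and 1.17, 1.14 and 1.25 in wildtype. Only knockout replicate 1 lay outside the wildtype range by a margin, and the log2 fold change was -0.15 (SE 0.20, adjusted p 0.821 by edgeR's quasi-likelihood test). It was -0.04 without knockout replicate 1 and -0.25 without knockout replicate 3. Just over 51% of the 50-base stretches of its transcript (51.2%) are identical in its copy Ifit3b. Reads placed at several sites lie outside the gene counts, so reads from these stretches may be missing from both genes. Ifit3b itself had 0.777, 0.835 and 0.893 CPM in knockout libraries, against 0.847, 1.44 and 1.54 CPM in wildtype libraries, a log2 fold change of -0.59 (SE 0.26, adjusted p 0.471). Its genotypes overlapped through wildtype replicate 1. The neighbours Ifit1bl1 and Ifit1bl2 had log2 fold changes of 0.01 and 0.05.

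**Figure D2:**
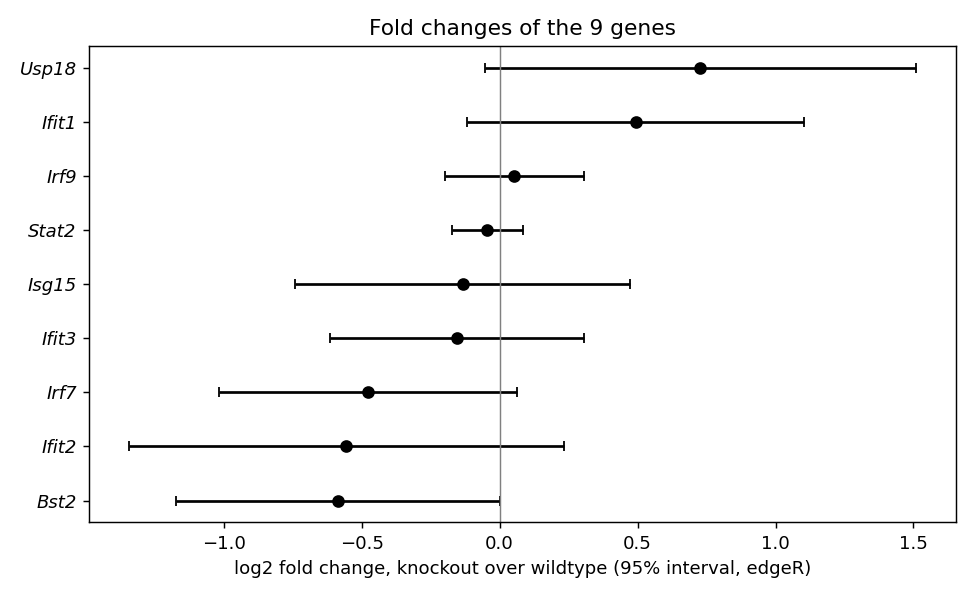
Log2 fold change of knockout over wildtype (horizontal axis) of the 9 genes, one row each, as the edgeR estimate with its 95% interval. Every interval includes 0, that of Bst2 only just, and the intervals of Stat2 and Irf9 are the narrowest.

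Isg15 encodes a ubiquitin-like protein that is attached to other proteins after interferon. It had 24, 21 and 78 reads in knockout libraries, against 46, 45 and 36 in wildtype libraries. In CPM the knockout values of 0.746, 0.797 and 1.37 spanned the wildtype values of 1.15, 1.03 and 1.13. Knockout replicates 1 and 2 were below all wildtype libraries and knockout replicate 3 was above them all. The means were 0.970 ± 0.344 CPM in knockout and 1.10 ± 0.0638 CPM in wildtype (SD, n = 3 each). The knockout mean was thus close to none of the knockout libraries. The log2 fold change was -0.13 (SE 0.27, adjusted p 0.891 by edgeR's quasi-likelihood test). It was -0.51 without knockout replicate 3 and 0.02 without knockout replicate 1.

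Usp18, the protease that removes ISG15 from proteins and damps signalling at Ifnar2, was the gene with the fewest reads. There were 16, 10 and 48 reads in knockout libraries, against 15, 16 and 11 in wildtype libraries, or 0.497, 0.379 and 0.841 CPM in knockout and 0.374, 0.366 and 0.345 CPM in wildtype. All knockout libraries were above all wildtype libraries, as held for 1 of the 9 genes and for 8.28% of all genes tested. No gene of the 9 had its knockout libraries all below, as 8.34% of all genes had (16.6% in either direction). In Usp18 the gap between knockout replicate 2 and wildtype replicate 1 was under 0.01 CPM. The 10 reads of knockout replicate 2 have a 95% Poisson interval from 4.795 to 18.4, which covers counting error only, and those of knockout replicate 3 from 35.4 to 63.6. The log2 fold change was 0.73 (SE 0.34), a fold of 1.66 with a 95% interval from 0.963 to 2.85 and an adjusted p of 0.506 by edgeR's quasi-likelihood test. Without knockout replicate 3 it was 0.28. None of these values passed the test. An antisense RNA, Gm44148, overlaps 124 of its exon bases (4.44%).

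The enzymes that attach ISG15 were read from a list of 4 genes. Uba7, its activating enzyme, had 3.91 ± 0.492 CPM in knockout and 4.25 ± 0.543 CPM in wildtype (SD, n = 3 each), a log2 fold change of -0.12 (SE 0.15). Ube2l6, its conjugating enzyme, had -0.11 (SE 0.15), and Herc6, the mouse ligase, 0.09 (SE 0.10). The 4 genes split evenly by sign, and 0 passed the test with edgeR or at an unadjusted p under 0.05.

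Bst2, or tetherin, holds budding virus particles at the cell surface and is also a plasmacytoid dendritic cell antigen. It had 38, 19 and 82 reads in knockout libraries, against 77, 79 and 45 in wildtype libraries, or 1.18, 0.721 and 1.44 CPM in knockout and 1.92, 1.80 and 1.41 CPM in wildtype. The genotypes overlapped only because knockout replicate 3 was just above wildtype replicate 3. The means were 1.11 ± 0.363 CPM in knockout and 1.71 ± 0.266 CPM in wildtype (SD, n = 3 each), and the log2 fold change was -0.59 (SE 0.26). The fold was 0.666 with a 95% interval from 0.443 to 1.00, and the adjusted p of 0.471 (edgeR's quasi-likelihood test, Benjamini-Hochberg) was the lowest of the 9. The unadjusted p was 0.0508 with edgeR and under 0.05 in 5 of 14 alternatives, upper quartile factors, no filter and the robust fit among them. Without knockout replicate 2 the log2 fold change was -0.38, and without knockout replicate 3 it was -0.84.

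Set per length, as RPKM, which is CPM per kilobase of exon (mean ± SD over all 6 libraries), the levels formed 3 tiers. Stat2, at 5.84 ± 0.237 RPKM, was above the others in every library. Irf9 at 3.49 ± 0.387, Ifit2 at 2.25 ± 1.14, Bst2 at 1.56 ± 0.481 and Isg15 at 1.37 ± 0.308 RPKM followed, each overlapping the next. Irf9 and Ifit2 overlapped only through wildtype replicate 2, where Ifit2 was 4.58 RPKM. The next highest library of Ifit2 (knockout replicate 2, 1.92 RPKM) was below the lowest of Irf9 (knockout replicate 1, 3.19 RPKM). The count of 3 tiers thus rested on that 1 library. Ifit3 came next at 0.645 ± 0.0754 RPKM, with its highest library (0.719) below the lowest of Isg15 (0.987). Ifit1 at 0.446 ± 0.128, Irf7 at 0.318 ± 0.0777 and Usp18 at 0.167 ± 0.0684 RPKM closed the order, again without a gap between neighbours. The short transcript of Isg15 puts it in the middle tier although its read counts are among the lowest. Lengths were those of all annotated exons merged. For Irf9 this was 5386 bases, against 2959 in its longest coding transcript, so the order may depend on that choice. Of the 50-base stretches of Ifit3, 51.2% also occur in Ifit3b, and reads placed at both lie outside the gene counts. The level of Ifit3 may thus be understated, and its gap to Isg15 is uncertain.

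The knockout libraries did not stand together across the 9 genes. Knockout replicate 3 was the highest library for Irf9, Isg15 and Usp18, at 0.27, 0.41 and 0.85 log2 units above the mean of the 6 libraries. Knockout replicate 2 was the lowest for Irf7, Stat2 and Bst2, the last at -0.86, and the highest for Ifit1 at 0.53. Knockout replicate 1 was the lowest for Ifit3, Irf9 and Isg15. Wildtype replicate 3 was the highest for Ifit3, Irf7 and Stat2 and the lowest for Usp18.

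**Figure D3:**
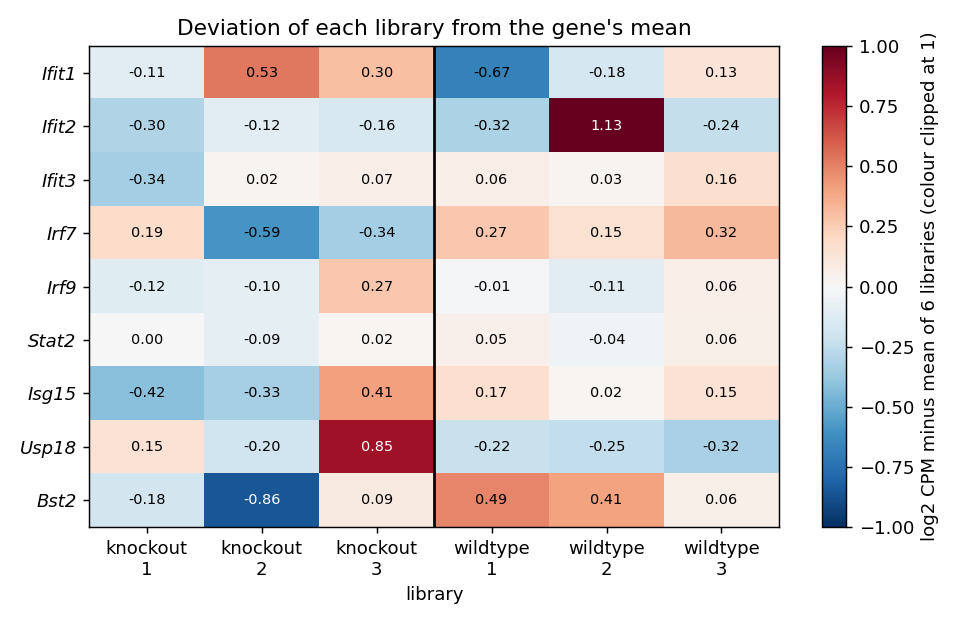
Deviation of each library (columns, knockout left of the line and wildtype right of it) from the mean of the 6 libraries for each gene (rows), in log2 CPM, with red above and blue below the mean and colours clipped at 1. The largest deviations are 1.13 for Ifit2 in wildtype replicate 2, -0.86 for Bst2 in knockout replicate 2 and 0.85 for Usp18 in knockout replicate 3.

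Genes whose pattern over the 6 libraries was nearest to the mean of the 9 scaled profiles were sought among tested genes. A mean of at least 1 CPM was required. Genes of the pathway and marker lists and unnamed or predicted genes were left out, so the other listed interferon-stimulated genes could not appear. The 5 nearest were Zfp319, Ccdc28b, Cyb5d1, Nol8 and Fancb, at root mean square distances of 0.478, 0.487, 0.487, 0.491 and 0.493 SD. The 9 genes lay between 0.507 (Isg15) and 1.07 (Ifit1) from that mean. They were fixed by name and make up that mean, whereas the 5 were picked as nearest, so the distances cannot be compared. The mean of the 9 profiles was high in knockout replicate 3 (0.60 SD) and low in knockout replicates 1 and 2 (-0.49 and -0.65 SD), with the wildtype libraries between 0.09 and 0.33 SD.

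Markers of the cells that could carry these genes were read beside them. The summed level of 6 microglial markers was 276 to 296 CPM in knockout and 281 to 294 CPM in wildtype, so the sums overlapped. By gene, 3 were positive and 3 negative and 0 passed with edgeR. Aif1 alone had no overlap, at 7.06, 6.75 and 5.97 CPM in knockout libraries, against 3.54, 3.91 and 3.23 CPM in wildtype libraries (log2 fold change 0.88, adjusted p 0.0720 by edgeR), and its part in the values of the 9 genes was not tested. Of 6 meningeal markers the sum was 87.5, 92.2 and 109 CPM in knockout libraries, against 80.0, 85.5 and 74.3 CPM in wildtype libraries, above in every knockout library and highest in knockout replicate 3. All 6 had a positive log2 fold change, and 0 passed with edgeR. Of the 6, 3 were at an unadjusted p under 0.05 with edgeR, against 10.6% of all genes tested. In 2 of the 6 all knockout libraries were above all wildtype libraries, against 8.28% of all genes tested. Of 5 ependymal markers the sum was 10.2, 11.6 and 16.3 CPM in knockout libraries, against 9.76, 12.7 and 11.1 CPM in wildtype libraries, with 3 of 5 positive log2 fold changes. Knockout replicate 3, the highest for Irf9, Isg15 and Usp18, was thus also the highest in both sums, and their part in those values was not tested.

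Of 6 endothelial markers the sum was 143, 151 and 156 CPM in knockout libraries, against 152, 171 and 154 CPM in wildtype libraries, with wildtype replicate 2 the highest, as for Ifit2. Its part in that value was not tested. By gene, 1 endothelial marker was positive and 5 were negative. Of these 1 was under an unadjusted p of 0.05 and 2 had all knockout libraries below wildtype, and 0 passed with edgeR. The 6 choroid plexus markers summed to between 31.0 and 38.7 CPM in knockout libraries, against 66.2, 28.4 and 25.3 CPM in wildtype libraries, the high value being wildtype replicate 1. Of the 5 tested, 2 were positive and 3 negative, with 1 positive gene under an unadjusted p of 0.05 with edgeR. Of 10 leukocyte markers only Siglech passed the filter on low counts, and Ms4a1 had 0 reads in all libraries. The hippocampal neuron markers summed to 2979 to 3201 CPM in knockout and 2927 to 3063 CPM in wildtype, with 4 positive and 2 negative log2 fold changes. The 6 astrocyte markers summed to 4594 to 4960 CPM in knockout and 4183 to 4773 CPM in wildtype. All 6 had a positive log2 fold change, 4 were under an unadjusted p of 0.05 and 3 had no overlap between genotypes, and 0 passed with edgeR. The lowest adjusted p among them was 0.0624, that of the connexin gene Gjb6, which was also the lowest of all genes tested. The 5 oligodendrocyte markers summed to 2877 to 3110 CPM in knockout and 3034 to 3729 CPM in wildtype, the highest being wildtype replicate 2, and the part of this list in the Ifit2 value was not tested either. Of these markers 1 was positive and 4 were negative. Among the negative ones 1 was under an unadjusted p of 0.05 with edgeR and 1 had no overlap between genotypes. The 5 erythroid markers summed to 13.1 to 17.3 CPM in knockout and 14.96 to 27.2 CPM in wildtype. Of these 1 was positive and 4 were negative. Among the negative ones 2 were under an unadjusted p of 0.05 with edgeR and 2 had no overlap. Beside these marker counts, 10.6% of all genes tested were under that p and 16.6% had no overlap between genotypes.

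The rest of the interferon pathway was read from 8 lists with 124 entries, of which 113 matched and 91 were tested. With edgeR 0 of the 91 passed, the smallest adjusted p being 0.330, and 0 passed with DESeq2 (68 with an adjusted p), limma-voom or edgeR's robust fit, which over all genes called 164, 0 and 15. At an unadjusted p under 0.05 there were 4 of 91 (4.40%), 2 in each direction, against 10.6% of all genes tested. The fold changes were positive for 43 and negative for 48, with a median log2 fold change of -0.01. In 6 genes all knockout libraries were above all wildtype libraries and in 7 all were below, against 8.28% and 8.34% of all genes tested.

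The interferon ligands were close to absent at this depth. Over the 11 matched ligand genes there were 3 reads in all 6 libraries together: 1 of Ifnk in knockout replicate 3, 1 of Ifng in knockout replicate 2 and 1 of Ifne in wildtype replicate 2. The other 8, Ifnb1, Ifna2, Ifna4, Ifna12, Ifna13, Ifna16, Ifnl2 and Ifnl3, had 0 reads in every library. A count of 0 allows up to 0.0524 CPM in the deepest library (knockout replicate 3) and up to 0.113 CPM in the shallowest (knockout replicate 2). A difference in ligand level between the genotypes was not detectable at this depth, and 10 further ligand genes were not analysed here.

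Of 9 receptors and kinases 8 passed the filter on low counts. The other, the type III receptor gene Ifnlr1, had 6, 6 and 16 reads in knockout libraries, against 8, 12 and 5 in wildtype libraries. Per length, Jak1 had 33.5 RPKM in knockout and 33.1 RPKM in wildtype, and Ifnar1 had 8.53 RPKM in knockout and 8.75 RPKM in wildtype (means, n = 3 each). Of the 8 tested, 3 had a positive and 5 a negative log2 fold change, with a median of -0.03. Jak2, a kinase of the interferon gamma receptor, had 53.8 ± 3.21 CPM in knockout and 48.1 ± 1.62 CPM in wildtype (SD, n = 3 each), a log2 fold change of 0.16 (SE 0.06, adjusted p 0.387 by edgeR). Ifngr1 had 13.7 ± 0.271 CPM in knockout and 12.1 ± 0.811 CPM in wildtype, and Ifnar2 had 11.8 ± 0.612 CPM in knockout and 13.2 ± 0.582 CPM in wildtype. The knockout libraries of Jak2 and Ifngr1 were all above wildtype, those of Ifnar2 all below, and the adjusted p of Ifngr1 and Ifnar2 were 0.472 and 0.530.

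**Figure D4:**
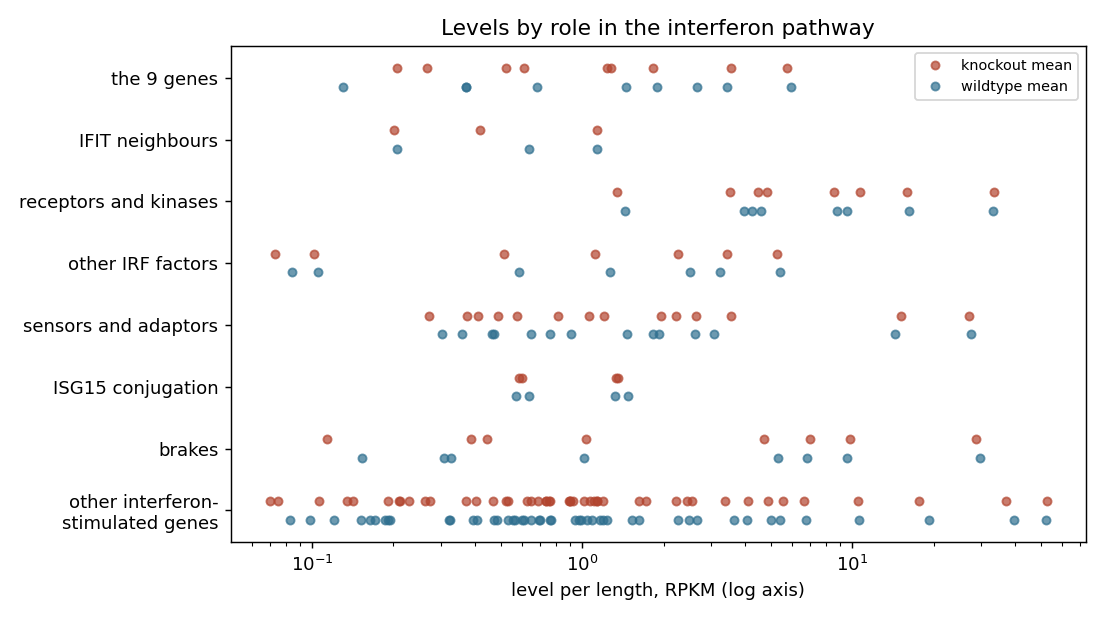
Mean level per length in RPKM (horizontal, log axis) of every tested gene by its role in the pathway (rows), knockout in red above wildtype in blue. The 9 genes span 0.205 to 5.74 RPKM in knockout and 0.130 to 5.93 RPKM in wildtype, and receptors and kinases reach 33.5 RPKM in knockout and 33.1 RPKM in wildtype.

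Among 15 sensors and adaptors, which detect foreign or misplaced nucleic acid, 14 were tested, 8 positive and 6 negative. Tlr7, the endosomal receptor for single-stranded RNA, had 4.91, 4.36 and 3.73 CPM in knockout libraries, against 3.21, 2.99 and 3.07 CPM in wildtype libraries. All knockout libraries were above all wildtype libraries, and the log2 fold change of 0.48 (SE 0.14) had the lowest adjusted p of the pathway, 0.330 by edgeR, which did not pass. Tmem173, which encodes the adaptor STING, had 3.73, 3.42 and 2.72 CPM in knockout libraries, against 3.91, 4.09 and 4.05 CPM in wildtype libraries, a log2 fold change of -0.30 (SE 0.15, adjusted p 0.517), which was -0.17 without knockout replicate 3. Ticam1, the adaptor of Tlr3, had a log2 fold change of 0.20 (SE 0.11).

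The other IRF factors, 7 genes, had 1 positive and 6 negative log2 fold changes with a median of -0.15, and 0 passed with edgeR or at an unadjusted p under 0.05. Irf1, an interferon gamma response factor, had 9.01 ± 0.818 CPM in knockout and 9.99 ± 0.176 CPM in wildtype (SD, n = 3 each). Irf8, which microglia need for their identity, had 3.61 ± 0.360 CPM in knockout and 4.11 ± 0.371 CPM in wildtype. Irf2, which can repress interferon targets, was the positive one at 0.09 (SE 0.06).

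The 8 brakes on the pathway had 5 positive and 3 negative log2 fold changes. Pias4, an inhibitor of STAT signalling, had 17.5, 17.2 and 17.3 CPM in knockout libraries, against 19.4, 20.1 and 19.7 CPM in wildtype libraries. Its genotypes did not overlap and its spread was small in both, yet the log2 fold change of -0.18 (SE 0.06) had an adjusted p of 0.358 by edgeR's quasi-likelihood test. Socs3, an inhibitor of JAK kinases, had 1.29 ± 0.336 CPM in knockout and 0.948 ± 0.0545 CPM in wildtype (SD, n = 3 each), a log2 fold change of 0.41 (SE 0.25, adjusted p 0.597). Cish, of the same family, had a log2 fold change of 0.33 (SE 0.22, adjusted p 0.622), and 0.12 without wildtype replicate 1.

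Among the other interferon-stimulated genes 47 of 56 matched were tested, 22 positive and 25 negative, with a median log2 fold change of -0.01, and 1 of 47 was under an unadjusted p of 0.05. That was Lgals3bp, a secreted glycoprotein, with 9.33, 9.75 and 9.72 CPM in knockout libraries, against 10.7, 13.04 and 11.01 CPM in wildtype libraries. All knockout libraries were below all wildtype libraries, and the log2 fold change was -0.27 (SE 0.10, adjusted p 0.398 by edgeR). Ly6e, a membrane protein known to restrict coronavirus entry, had 141 ± 2.02 CPM in knockout and 150.4 ± 9.49 CPM in wildtype (SD, n = 3 each). Ifitm1, which blocks virus entry at membranes, had 1.12, 1.29 and 0.543 CPM in knockout libraries, against 0.523, 0.731 and 0.596 CPM in wildtype libraries, a log2 fold change of 0.61 (SE 0.35, adjusted p 0.579). Its genotypes overlapped through knockout replicate 3, the library in which Isg15 and Usp18 were highest.

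**Figure D5:**
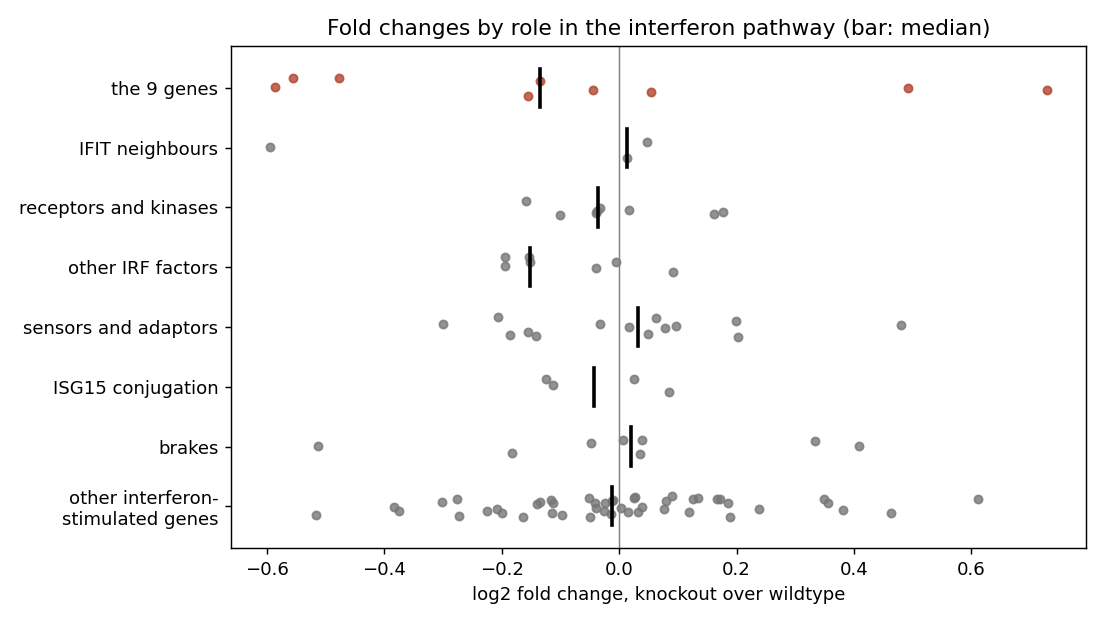
Log2 fold change of knockout over wildtype (horizontal axis) of every tested gene by its role in the pathway (rows), with the median of each row as a black bar. The 9 genes, in red at the top, run from -0.59 to 0.73 around a median of -0.13, and the 47 other interferon-stimulated genes run from -0.52 to 0.61 around -0.01.

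The fold changes were set beside the ISRE letters in the promoter windows, where Usp18 had no window, and beside the seed matches. The 5 genes with the letters had log2 fold changes of 0.49 (Ifit1), -0.15 (Ifit3), -0.04 (Stat2), -0.13 (Isg15) and -0.59 (Bst2). The 3 whose windows lacked them had -0.56 (Ifit2), -0.48 (Irf7) and 0.05 (Irf9). By seed match, Ifit1, Ifit3, Irf7 and Irf9, which hold the miR-17 and miR-20a match, had 0.49, -0.15, -0.48 and 0.05. Stat2, with the miR-19 match alone, had -0.04. The 4 genes with no seed match had -0.56 (Ifit2), -0.13 (Isg15), 0.73 (Usp18) and -0.59 (Bst2). Both kinds of gene were found on both sides of 0, and with 9 genes no test was made.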

How the data were processed

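Hippocampal RNA was sequenced from 3 knockout and 3 wildtype mice. The files deposited for each mouse hold whole-number counts of reads per gene, not normalized. Tools named in the submitters' processing notes are HTSeq, SAMtools, DESeq2, STAR 2.3.0e and FastQC 0.10.1, and the build is mm9. Their roles, the gene annotation and the strand setting were not stated there or in the labels. The 5 closing rows that name no gene held 38.0% to 40.3% of each file and were left out.

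Names (32897 of 37620 identifiers matched), exon lengths and transcripts came from GENCODE M21 on GRCm38, and promoters and microRNAs from RefSeq. Gene positions on mm9 are not given. CPM use TMM library sizes. The test was edgeR 4.0.16 (R 4.3.3), quasi-likelihood, genotype alone, filterByExpr, with Benjamini-Hochberg adjustment at 0.05 over all genes tested. It was checked on simulated counts. DESeq2 1.42.0, limma-voom (limma 3.58.1), other scalings, filters, a replicate block and leaving out each library were alternatives.

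The genes, their pathway lists (8) and marker lists (10) were chosen with earlier results of these data known. Of the pathway lists 1 gene is not reported here. Named were the 9 genes, up to 3 genes with the smallest p per list, ligands at 0 and the 5 nearest patterns. Jak1, Ifnar1, Ifnlr1, Aif1, Gjb6, C4b, Tpm3-rs7 and Myo7a were named after their values were seen. Depth, 26439693 to 57246827 gene reads, limits genes near 1 CPM, which have few reads.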

Additional observations from a re-analysis of the deposited data

Results flagged for a closer look

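The share of reads placed at several sites, which lies outside the gene counts, did not overlap between the genotypes. It averaged 21.8% ± 0.714 in knockout and 20.7% ± 0.407 in wildtype (SD, n = 3 each), with 21.2%, 22.6% and 21.6% in knockout libraries, against 20.2%, 21.0% and 20.9% in wildtype libraries. Of the 9 genes, Ifit3 and Ifit1 share the most sequence with copies (51.2% and 7.13% of 50-base stretches), and the part of these reads in their values was not tested.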

How the results depend on the processing

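Among the 9 genes and the other pathway genes, those that could be tested had 0 calls under every alternative run, replicate block included. DESeq2 gave an adjusted p to 3 of the 9 genes and to 68 other pathway genes. The filter of 1 CPM in 3 libraries left Usp18 untested and kept 76 other pathway genes. Over all genes, where the count was 0, it was 62 with no filter beyond 1 read, 164 with DESeq2, 15 with edgeR's robust fit and 18 at an adjusted p under 0.10. Leaving out 1 library gave 0 to 17 calls, 17 of them without knockout replicate 3, 16 without wildtype replicate 2, and 2 with replicate 1 of either genotype left out. The cause was not tested.

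Among named log2 fold changes, 407 kept their sign and gained no call, and 9 changed sign. Those to which DESeq2 gave no adjusted p were counted as not called. Leaving out 1 library, Isg15 ran from -0.51 to 0.018, Irf9 from -0.10 to 0.12, Ifit2 from -0.81 to 0.092, Ifit1bl1 from -0.23 to 0.21 and Ifit1bl2 from -0.35 to 0.31. Leaving out 1 library also moved the log2 fold change by over 1.5 times for Uba7 (-0.19 to -0.02), Ube2l6 (-0.18 to -0.01), Herc6 (0.05 to 0.13), Socs3 (0.26 to 0.63), Ifitm1 (0.38 to 0.95), Ticam1 (0.12 to 0.27), Irf2 (0.06 to 0.12), Irf8 (-0.27 to -0.12), Lgals3bp (-0.33 to -0.18), Ly6e (-0.15 to -0.06) and Stat2 (-0.08 to -0.01), and none passed. The same held for Ifit1 (0.29 to 0.69), Ifit3 (-0.25 to -0.04), Irf7 (-0.72 to -0.33), Usp18 (0.28 to 0.92) and Bst2 (-0.84 to -0.38). It also held for Cish (0.12 to 0.46) and Tmem173 (-0.40 to -0.17), and none of these passed. With the replicate block 0 genes were called and Ifit1bl2 was -0.025. The deviations of same-numbered mice correlated at -0.10, -0.02 and -0.15 across genes. Whether same-numbered mice were handled together is not stated and was not tested. Low counts bound some genes only loosely: the fold of Usp18 could lie between 0.963 and 2.85.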
